A study of Mus musculus with 6 samples.

Results

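The AMPA receptor genes described here are 9 of the 13348 listed genes, chosen by gene name. They are the pore subunit genes Gria1, Gria2, Gria3 and Gria4, the transmembrane AMPA receptor regulatory protein (TARP) genes Cacng2, Cacng3 and Cacng8, and the cornichon genes Cnih2 and Cnih3. Their 20 listed transcripts, of 24676 in all, were taken by the same names. The tissue was orbitofrontal cortex, taken from 12-week-old C57BL/6 mice and sequenced as 6 stranded libraries. The knockdown group (SH in the labels) held 3 libraries from mice whose orbitofrontal cortex was injected with a lentivirus carrying a short hairpin RNA (shRNA) against the splice junction of circHomer1a, a circular RNA of the Homer1 gene. The control group held 3 libraries with a scrambled shRNA, and no other allele or agent is named for either group. The labels do not give the promoter of the shRNA, the share of cells that the virus reached, or whether samples were pooled or came from separate animals. The p-values below therefore cover the spread among these libraries alone, and that spread may be technical.

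AMPA receptors are tetramers of the subunits GluA1 to GluA4, encoded by Gria1 to Gria4, and carry most fast excitatory transmission in the cortex. TARPs and cornichons bind the pore subunits, help them reach the surface and slow their closing. Full-length Gria mRNAs usually hold one of a pair of alternative exons, called flip and flop, in the part that codes for the ligand-binding domain. In rodent neurons, flop channels of several subunits desensitise faster than flip channels. The Gria2 subunit, once its RNA is edited at the Q/R site of the pore, keeps the channel nearly closed to calcium.

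The flip and flop exons of Gria4 and Gria2 are shown because the transcripts below are told apart by them. Each exon has 115 bases, and capitals mark the bases that differ from the other exon of the same gene, 31 in Gria4 and 36 in Gria2. The Gria4 exons lie on the minus strand, flip at chr9:4427030-4427144 and flop at chr9:4432773-4432887, and those of Gria2 on the minus strand, flip at chr3:80690404-80690518 and flop at chr3:80691320-80691434 (GRCm38, GENCODE M21). In both genes flop comes first in the direction of transcription.
Gria4 flip exon: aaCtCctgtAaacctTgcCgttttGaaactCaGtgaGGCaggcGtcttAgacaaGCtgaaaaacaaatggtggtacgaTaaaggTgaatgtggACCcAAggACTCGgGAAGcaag
Gria4 flop exon: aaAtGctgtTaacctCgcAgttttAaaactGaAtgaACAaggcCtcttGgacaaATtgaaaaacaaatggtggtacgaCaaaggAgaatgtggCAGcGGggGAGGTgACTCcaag
Gria2 flip exon: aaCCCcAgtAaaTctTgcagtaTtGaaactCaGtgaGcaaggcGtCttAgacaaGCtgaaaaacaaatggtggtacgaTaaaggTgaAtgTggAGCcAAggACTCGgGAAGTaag
Gria2 flop exon: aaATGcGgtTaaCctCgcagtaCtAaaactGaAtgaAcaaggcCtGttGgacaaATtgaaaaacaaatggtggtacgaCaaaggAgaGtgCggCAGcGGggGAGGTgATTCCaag

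Between genes, the exons of one form are closely alike, with 87.8% (Gria1 and Gria3) to 92.2% (Gria2 and Gria3, and Gria2 and Gria4) identical bases for flip. For flop the identity lay between 87.8% (Gria1 with Gria2 and with Gria4) and 94.8% (Gria3 and Gria4). The pore segment around the Q/R site is printed for Gria2, where the site is edited, and for Gria1, where it is not, with the codon of the site in capitals. These 30 bases lie at chr3:80706896-80706925 on the minus strand for Gria2 and chr11:57243082-57243111 on the plus strand for Gria1 (GRCm38). The genome has the same codon in both genes, and the deposited values do not measure editing.
Gria2 Q/R site: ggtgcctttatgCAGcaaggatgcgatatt
Gria1 Q/R site: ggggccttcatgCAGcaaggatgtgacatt

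Values are FPKM, fragments per length of the feature scaled to the mapped fragments of the library, as deposited by the authors. FPKM of all listed genes summed to between 256047 (knockdown 1) and 277103 in knockdown libraries and between 264518 and 285833 (control 2) in control libraries. The gene FPKM of Homer1 was 7.44, 16.1 and 9.47 in knockdown 1, 2 and 3, against 12.1, 8.97 and 12.1 in control 1, 2 and 3. It is a value for the gene as a whole and does not check the knockdown of the circular RNA. Markers of the tissue were present: all 8 excitatory neuron markers were listed, with summed FPKM of 1160 to 1512 in knockdown and 1277 to 2062 in control libraries. Summed FPKM of the 9 striatal markers was 598, 688 and 844 in knockdown 1, 2 and 3, and 871, 1427 and 375 in control 1, 2 and 3. The 7 myelin markers summed to 1225 to 1636 in knockdown and 1046 to 1314 in control libraries. In bulk tissue, fewer cells of a type and less RNA per cell cannot be told apart.

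Gene totals of the 9 members were of similar size in both groups, and the levels spanned more than an order of magnitude between genes. Cnih2, a cornichon of the forebrain, was the highest, with a mean of 141.8 FPKM over the 6 libraries, in the 98.3rd percentile of listed genes. Gria1 followed at 54.3 FPKM, then Cacng3 at 36.6, Gria2 at 33.3, Cacng2 at 25.7, Cacng8 at 21.02, Gria3 at 18.7, Cnih3 at 15.0 and Gria4 at 12.5 FPKM. Cnih2 lay above Gria1, and Gria1 above Cacng3, in 6 of 6 libraries without overlap of their ranges. From Cacng3 downwards, the ranges of neighbours in this order overlapped, and the last 3 pairs kept their order in only 4 of 6 libraries each.

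**Figure D1:**
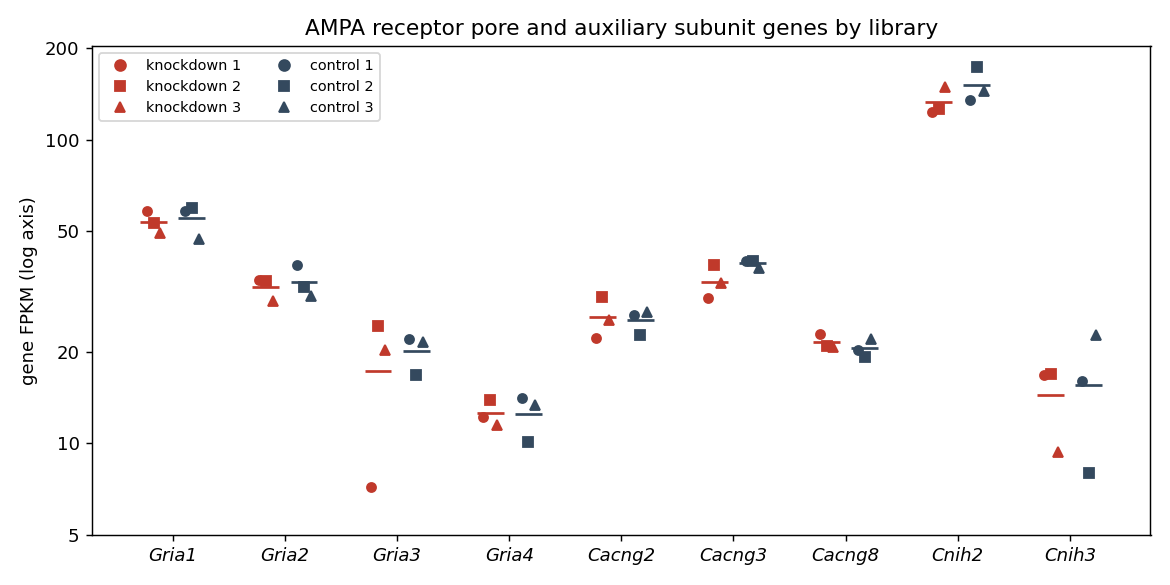
Gene FPKM (log axis) of the 9 genes in each library, with knockdown libraries in red left of control libraries in dark blue; horizontal lines are group means (n = 3 each). The groups overlap in every gene, and Gria3 in knockdown 1 (7.18 FPKM) lies below the other 5 libraries (16.8 to 24.3 FPKM).

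The order of Gria2 depends on how a gene value is built. The deposited gene FPKM equals the length-weighted sum of transcript FPKM divided by the length of all exons of the gene together, which is 15548 bases for Gria2 because its models include retained introns and a long last exon. As the plain sum of listed transcripts, Gria2 averaged 45.1 FPKM, above Cacng3 (36.4) and Cacng8 (36.0), and Gria1 60.5 FPKM. On this scale Gria3 was the lowest of the 9, at 3.72 FPKM. Its listed transcripts held only 41.7% of the gene's fragments in knockdown 1 and 5.21% to 6.13% in the other libraries. The Gria3 sum therefore leaves out most fragments of the gene.

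Gria1, the subunit gene with the highest level of the 4, was at 58.1, 53.3 and 49.2 FPKM in knockdown 1, 2 and 3, against 58.3, 59.7 and 47.2 FPKM in control 1, 2 and 3. The groups overlapped, with the lowest value in control 3, and the log2 fold change (of FPKM + 1, knockdown minus control) was -0.04 with a 95% interval of -0.31 to 0.24. Gria2 was at 34.6, 34.3 and 29.3 FPKM in knockdown libraries, against 38.5, 32.8 and 30.4 FPKM in control libraries. Its log2 fold change was -0.05 (95% interval -0.32 to 0.23), within the spread of either group.

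Gria4, which is known in the cortex for its expression in fast-spiking interneurons, was at 12.2, 13.9 and 11.5 FPKM in knockdown libraries, against 14.0, 10.1 and 13.3 FPKM in control libraries. The gene total thus differed by less than the spread between replicates, with a log2 fold change of 0.02 (95% interval -0.31 to 0.34). Interneuron markers summed to 530 to 673 FPKM in knockdown and 656 to 751 FPKM in control libraries, and these ranges overlapped. The part of the interneuron markers in the Gria4 values was not tested.

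Gria3, an X-linked subunit gene, had the widest spread of the 4. It was at 7.18, 24.3 and 20.3 FPKM in knockdown 1, 2 and 3, against 22.0, 16.8 and 21.5 FPKM in control 1, 2 and 3. One library, knockdown 1, was low, and knockdown 2 was the highest of the 6. The log2 fold change was -0.35 (95% interval -1.29 to 0.58) with all libraries and 0.15 without knockdown 1. Its residual SD lay in the 97.9th percentile of all genes tested.

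Among the TARP genes, Cacng2 (stargazin) was at 22.2, 30.3 and 25.5 FPKM in knockdown libraries, against 26.4, 22.8 and 27.0 FPKM in control libraries, with a log2 fold change of 0.02 (95% interval -0.28 to 0.33). Cacng3, which encodes the TARP gamma-3 of the cortex, was at 30.1, 38.5 and 33.6 FPKM in knockdown libraries, against 39.8, 39.9 and 37.8 FPKM in control libraries. Knockdown 1 and 3 lay below each control, and knockdown 2 lay above control 3. Its log2 fold change of -0.20 (95% interval -0.45 to 0.05) had the smallest p of the 9 genes (limma unadjusted p = 0.0956, adjusted p = 0.948), and the two-sided exact permutation p of FPKM was 0.2. Without any 1 library the value lay between -0.29 and -0.12. Cacng8, the gene of the hippocampal and forebrain TARP gamma-8, varied least, from 20.7 to 22.8 FPKM in knockdown and from 19.3 to 22.1 FPKM in control libraries (log2 fold change 0.06, 95% interval -0.15 to 0.27).

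The cornichon genes differed from each other in their spread. Cnih2 was at 124, 126 and 149 FPKM in knockdown libraries, against 135, 173 and 144 FPKM in control libraries. Knockdown 1 and 2 lay below each control, knockdown 3 did not, and control 2 was the highest. The log2 fold change was -0.18 (95% interval -0.48 to 0.12), and -0.08 without control 2.

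Cnih3 was at 16.8, 16.9 and 9.39 FPKM in knockdown 1, 2 and 3, against 16.0, 7.99 and 22.7 FPKM in control 1, 2 and 3. Both extremes were control libraries, and the log2 fold change was -0.04 (95% interval -0.92 to 0.83). Its residual SD was in the 97.4th percentile of genes tested. Control 3, the highest for Cnih3, had the lowest summed striatal markers (375 FPKM), and control 2, the lowest for Cnih3, had the highest (1427 FPKM). All 9 striatal markers were above 0 in every library, and their part in the Cnih3 values was not tested.

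In the fit over all genes, limma called 0 of 11961 genes at an adjusted p under 0.05 (0%), and 0 of the 9 members. An unadjusted p under 0.05 was found in 3.57% of all genes and in 0 of the 9. The groups did not overlap in 7.92% of all genes (knockdown higher in 4.45% and lower in 3.47%) and in 0 of the 9. The log2 fold change was positive in 3 members and negative in 6, with a median of -0.04, against a median of 0.02 over all genes tested, of which 55.7% were positive. The signs of the smallest values depend on scaling: Gria1 (0.02), Gria2 (0.01) and Cnih3 (0.01) were positive once all libraries were brought to the same FPKM sum, and Cacng2 (-0.0012) and Gria4 (-0.0090) were negative with median-of-ratios factors. The 95% intervals of 7 genes lay between -0.48 and 0.34, and those of Gria3 and Cnih3 were wider.

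**Figure D2:**
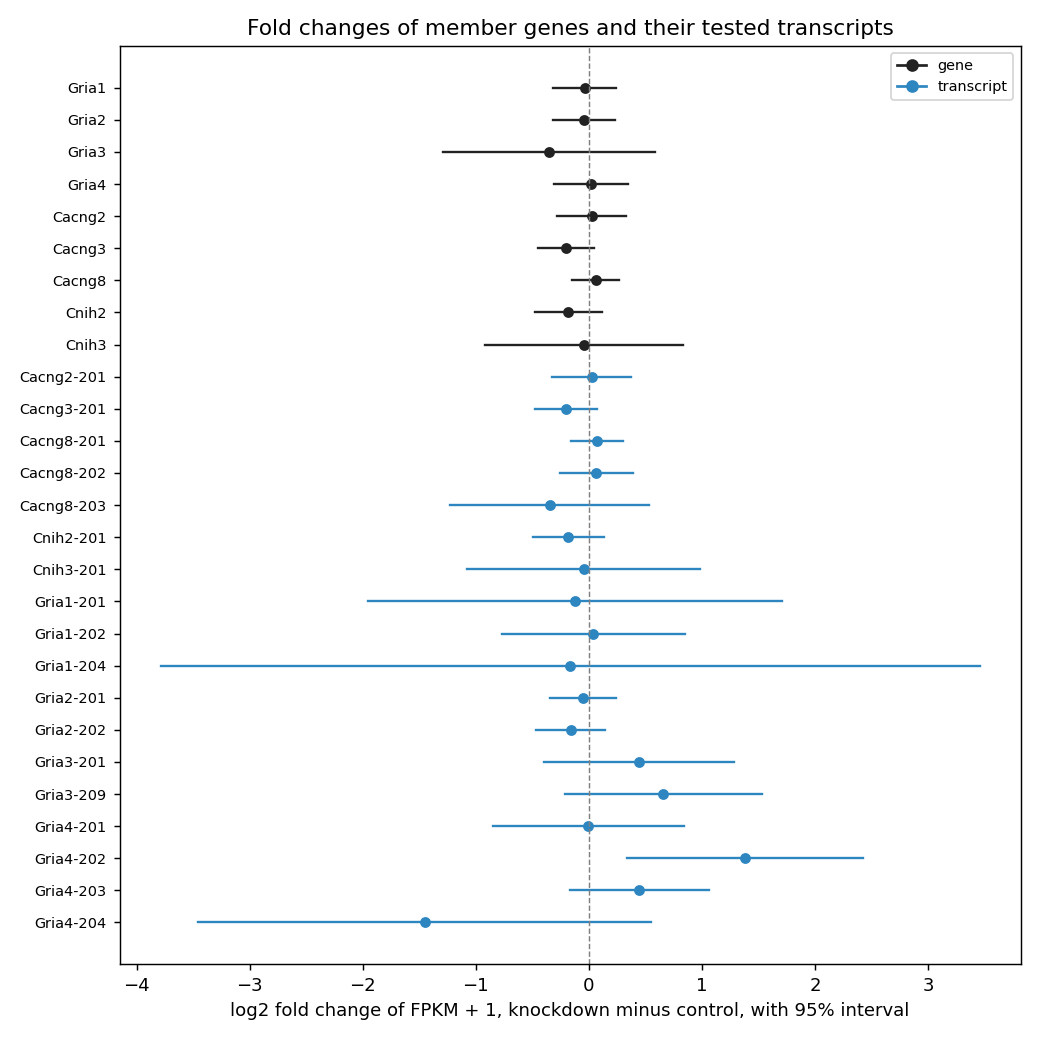
Log2 fold change of FPKM + 1 (knockdown minus control, points) with its 95% interval (lines) for the 9 genes (black) and their 18 tested transcripts (blue). Gria4-202 (1.38, interval 0.34 to 2.42) is the one feature whose interval leaves out 0, and it did not pass after adjustment.

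Of the 20 listed transcripts, 18 had a mean of at least 1 FPKM and were tested, and Gria3-202 and Cnih3-203 were not. In the fit over all transcripts limma called 19 of 18476 (0.103%) and 0 of the 18. An unadjusted p under 0.05 was found in 3.81% of all transcripts and in 1 of the 18, Gria4-202. The groups did not overlap in 8.8% of all transcripts and in 2 of the 18, Gria4-202 (knockdown higher, as in 4.57% of all) and Gria2-202 (knockdown lower, as in 4.22% of all). Relative transcript use was tested with diffSplice in the 5 member genes with 2 or more tested transcripts. It called 41 of 4091 genes (1%) and 0 of the 5, with an unadjusted p under 0.05 in 9.68% of all and in 1 of the 5, Gria4.

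Of the 18 tested transcripts, Gria4-202 and Gria4-204 had the largest fold changes, in opposite directions, while the Gria4 total was near equal between the groups. Gria4-202, the flip form, was at 4.64, 5.27 and 9.33 FPKM in knockdown 1, 2 and 3, against 2.84, 0.577 and 2.40 FPKM in control 1, 2 and 3. Each knockdown library lay above each control, with a log2 fold change of 1.38 (95% interval 0.34 to 2.42, limma unadjusted p = 0.0179, adjusted p = 0.950, two-sided exact permutation p = 0.1, the smallest possible). When any 1 library was left out, the fold change lay between 0.98 (without control 2) and 1.63.

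Sums of the oligodendrocyte precursor and erythrocyte markers are given beside Gria4-202. No rule chose these sums among the marker lists, and neither follows Gria4-202 in every library. The 5 oligodendrocyte precursor markers summed to 95.1, 76.9 and 101 FPKM in knockdown 1, 2 and 3, against 84.8, 64.6 and 75.3 FPKM in control 1, 2 and 3. Like Gria4-202, this sum was highest in knockdown 3 and lowest in control 2, and it was the only marker sum with both of these extremes. Unlike Gria4-202, its groups overlapped, with knockdown 2 the lowest knockdown library and below control 1. Control 2 also stood apart in its 5 erythrocyte markers, which summed to 1665 FPKM there, against 394 and 542 FPKM in control 1 and 3. In knockdown 1, 2 and 3 the erythrocyte sum was 320, 341 and 598 FPKM, so among these libraries it rose with Gria4-202. Control 2 had the lowest mean Spearman correlation with the other libraries (0.957, against 0.966 to 0.971). All 10 of these markers were above 0 in every library, and their part in the Gria4-202 values was not tested.

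Gria4-204, a flop form, was at 5.09 and 7.14 FPKM in knockdown 1 and 2 and listed at 0 in knockdown 3, against 10.7, 6.78 and 10.1 FPKM in control libraries. Knockdown 2 lay above control 2, so the groups overlapped, and the log2 fold change was -1.45, with an interval (95%) from -3.45 to 0.55 and an adjusted p of 0.950 by limma, and -0.51 without knockdown 3. Gria4-201, the other flop form, was at 1.40 to 2.71 FPKM in knockdown and 1.29 to 3.57 FPKM in control libraries. Gria4-203, a short model of 11 exons that ends before the cassette exons and so holds neither, was at 4.70, 5.29 and 6.47 FPKM in knockdown libraries, against 4.24, 2.42 and 4.92 FPKM in control libraries.

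**Figure D3:**
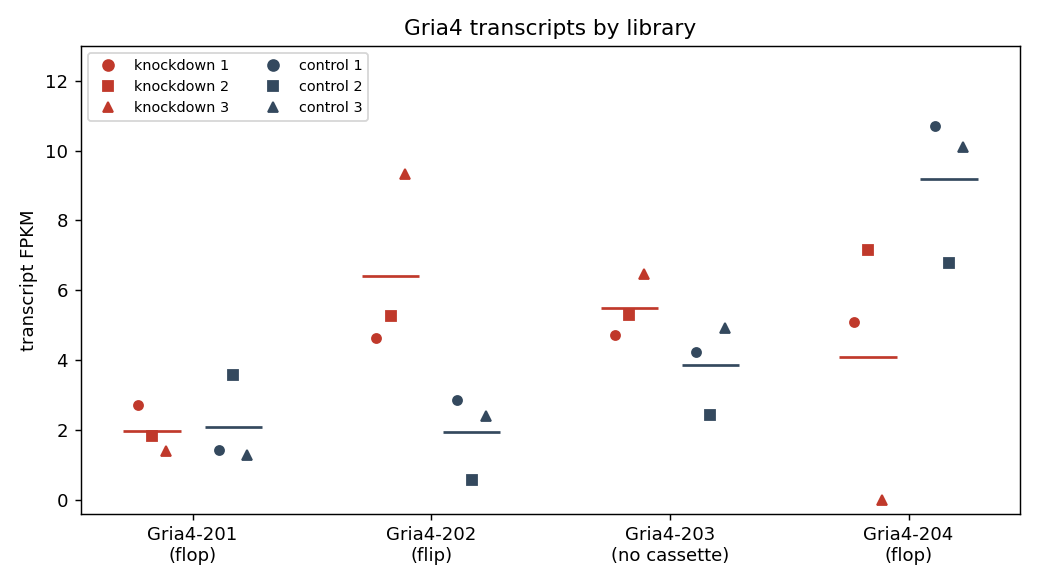
Transcript FPKM of the 4 Gria4 transcripts in each library, knockdown (red) left of control (dark blue), with group means as lines (n = 3 each). The flip form Gria4-202 lies at 4.64 to 9.33 FPKM in knockdown and 0.577 to 2.84 FPKM in control libraries, while the groups overlap in the other transcripts.

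Flip as a share of flip and flop FPKM of Gria4 was 37.3%, 37.0% and 86.9% in knockdown 1, 2 and 3, against 19.0%, 5.28% and 17.4% in control 1, 2 and 3. The shares did not overlap, and the mean was 53.8% ± 28.7 in knockdown and 13.9% ± 7.50 in control libraries (SD, n = 3 each). The difference was 39.9 percentage points (two-sided exact permutation p = 0.1, the smallest that 3 against 3 allows), and 23.3 points without knockdown 3, the library in which Gria4-204 was listed at 0. Without control 2 it was 35.6 points (exact permutation p = 0.3) and without control 3 41.6 points (exact permutation p = 0.2). Leaving out any other library kept the permutation p at 0.1. The usage test of Gria4 gave an unadjusted p of 0.0159 and an adjusted p of 0.350 (diffSplice). That test gave an unadjusted p under 0.05 in 9.68% of the 4091 genes, so 0.0159 is read with that limit. Gria4-202 has 118 bases, 2.20% of its length, that no other listed Gria4 transcript shares, and Gria4-201 has 0, so the split between forms rests on a small part of each transcript. The number of fragments behind it is unknown.

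**Figure D4:**
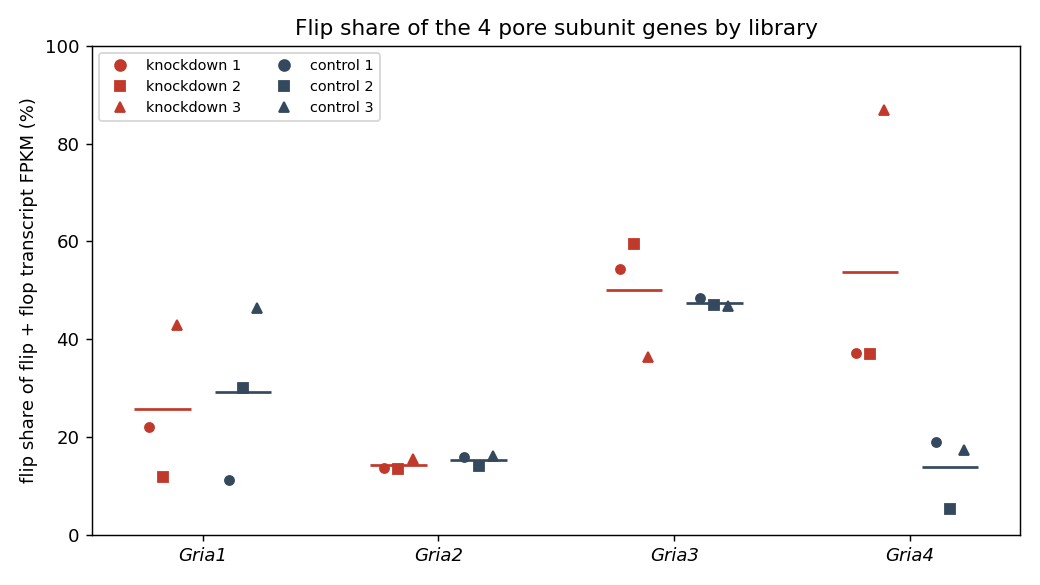
Flip share of flip and flop transcript FPKM (percent) for Gria1 to Gria4 in each library, knockdown (red) left of control (dark blue), with group means as lines (n = 3 each). The groups overlap for Gria1, Gria2 and Gria3 and not for Gria4, where knockdown libraries lie at 37.0% to 86.9% and control libraries at 5.28% to 19.0%. The listed flip and flop forms of Gria2 and of Gria3 also differ in their last exon.

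Flip use of Gria1 varied as widely within each group as between them. The flip share was 22.1%, 11.9% and 43.0% in knockdown 1, 2 and 3, against 11.2%, 30.0% and 46.4% in control 1, 2 and 3. Knockdown 3 and control 3 were the highest of their groups, and the difference of -3.56 points had a two-sided exact permutation p of 0.8. The flop form Gria1-202 was at 50.7, 52.4 and 31.0 FPKM in knockdown libraries, against 57.7, 46.7 and 28.0 FPKM in control libraries. The flip form Gria1-201 was at 4.44, 7.07 and 23.4 FPKM in knockdown libraries, against 7.29, 5.60 and 24.2 FPKM in control libraries.

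Gria1-204, a flip form with another first exon, was at 9.90 FPKM in knockdown 1 and 14.4 FPKM in control 2. It was listed at 0 in knockdown 2, control 1 and control 3, and was at 0.00123 FPKM in knockdown 3. Bases found in no other listed transcript make up 2.13% (Gria1-202) to 2.65% (Gria1-201) of the length of these forms, 115 to 147 bases. The sum of the 3 transcripts was steadier than its parts, at 54.5 to 65.0 FPKM in knockdown and 52.2 to 66.8 FPKM in control libraries.

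Most listed transcript FPKM of Gria2 was assigned to its flop model in every library. Gria2-201, the flop form, was at 38.3, 40.9 and 33.9 FPKM in knockdown libraries, against 42.7, 40.0 and 34.8 FPKM in control libraries. Gria2-202, the flip form, was at 6.10, 6.38 and 6.17 FPKM in knockdown libraries, against 8.11, 6.59 and 6.62 FPKM in control libraries. The groups of Gria2-202 did not overlap, but the gap between knockdown 2 and control 2 was small beside the spread of the control group, and the log2 fold change was -0.16, with an interval (95%) from -0.47 to 0.14 and an adjusted p of 0.950 by limma (exact two-sided permutation p = 0.1).

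The flip share of Gria2 was 13.7%, 13.5% and 15.4% in knockdown libraries, against 16.0%, 14.1% and 16.0% in control libraries. These ranges overlapped, with a difference of -1.15 points (two-sided exact permutation p = 0.2). Its forms also differ outside the cassette: the last exon has 7265 bases in Gria2-201 and 920 bases in Gria2-202, so 62.3% of Gria2-201 is found in no other listed transcript. The Gria2 share therefore reflects both the cassette and the use of the long last exon. Counted by fragments instead of per length, flip was 5.71% to 6.61% in knockdown and 6.01% to 6.88% in control libraries.

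Most fragments of Gria3 were assigned outside its 3 listed transcripts. The listed transcripts held 41.7%, 5.88% and 5.79% of the gene's fragments in knockdown 1, 2 and 3, against 6.13%, 5.70% and 5.21% in control 1, 2 and 3. Knockdown 1 stood apart from the other 5 libraries. The same calculation gave 100% in each library for Gria4 and Cacng8, where all M21 models are listed, and 78.5% to 84.3% in knockdown and 79.5% to 86.6% in control libraries for Gria2. GENCODE M21 has 9 models of Gria3, of which 4 are of the retained intron type and 1 of the nonsense-mediated decay type. The deposited tables hold only protein-coding models, but not all of them: the protein-coding Gria3-203 was not listed either.

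The low Gria3 gene total of knockdown 1 lay in this outer part. Outside the listed transcripts, gene FPKM was 4.18, 22.9 and 19.1 in knockdown libraries, against 20.6, 15.9 and 20.4 in control libraries. In the listed transcripts it was 3.00, 1.43 and 1.17 in knockdown libraries, against 1.35, 0.959 and 1.12 in control libraries, so there knockdown 1 was the highest and not the lowest.

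**Figure D5:**
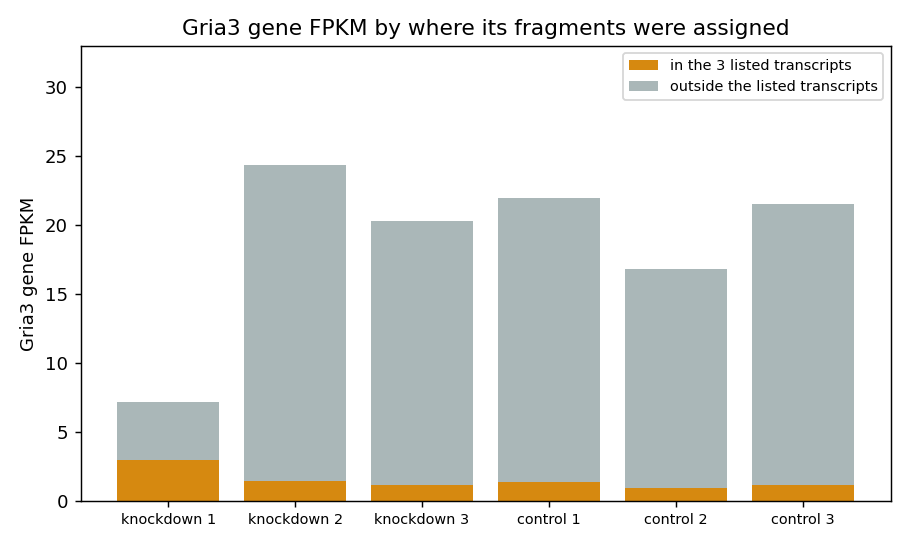
Gria3 gene FPKM per library, split into the part assigned to the 3 listed transcripts (orange) and the part outside them (grey), with knockdown libraries left of control libraries. In knockdown 1 the listed part is 41.7% of the bar, and in the other 5 libraries it is 5.21% to 6.13%.

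By transcript, the flip form Gria3-201 was at 3.98, 1.98 and 1.15 FPKM in knockdown libraries, against 1.61, 1.12 and 1.31 FPKM in control libraries. Gria3-209, a flop form, was at 3.33, 0.850 and 1.52 FPKM in knockdown libraries, against 0.916, 0.582 and 0.701 FPKM in control libraries. Knockdown 1 was the highest for both transcripts. The flop form Gria3-202 was listed at 0 in knockdown 1 and at 0.502 and 0.500 FPKM in knockdown 2 and 3, against 0.803, 0.682 and 0.779 FPKM in control libraries, too low to be tested. The flip share of the listed forms was 54.4%, 59.4% and 36.3% in knockdown libraries, against 48.4%, 46.9% and 46.9% in control libraries (difference 2.66 points, two-sided exact permutation p = 0.7). These forms also differ outside the cassette: the last exon has 2262 bases in Gria3-201 and 246 bases in Gria3-202 and Gria3-209. Of Gria3-201, 45.4% is found in no other listed transcript, so the share reflects more than the cassette. Counted by fragments instead of per length, flip was 51.6% to 73.0% in knockdown and 61.3% to 63.0% in control libraries.

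Auxiliary subunit genes were mostly represented by a single transcript. Cacng2-201, Cacng3-201 and Cnih2-201 were the only listed transcripts of their genes, and Cnih3-201 held 96.4% of the Cnih3 transcript FPKM in knockdown and 96.9% in control libraries. Cnih3-203 lay between 0.352 and 0.810 FPKM in knockdown and between 0.361 and 0.504 FPKM in control libraries. Cacng8-201 was at 32.7, 30.4 and 29.3 FPKM in knockdown libraries, against 28.7, 27.4 and 31.7 FPKM in control libraries, and held 84.3% and 82.4% of the gene's transcript FPKM in knockdown and control libraries. Cacng8-202, with the same coding length of 1269 bases but 6 exons, was at 3.46 to 3.59 FPKM in knockdown and 3.08 to 3.62 FPKM in control libraries. The single-exon model Cacng8-203 ranged from 0.864 FPKM (knockdown 2) to 3.53 FPKM (knockdown 1), against 2.29 to 3.39 FPKM in control libraries.

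The balance between subunits was alike in size between the groups. The 4 pore genes together were at 112, 126 and 110 FPKM in knockdown libraries, against 133, 119 and 112 FPKM in control libraries (difference -5.47 FPKM, two-sided exact permutation p = 0.5). Gria2 made up 30.8%, 27.3% and 26.6% of this sum in knockdown libraries, against 29.0%, 27.5% and 27.1% in control libraries (difference 0.38 points, two-sided exact permutation p = 0.9). The high share in knockdown 1 goes with its low Gria3, which was 6.40% of the sum there, against 14.1% to 19.3% in the other 5 libraries. With genes as sums of listed transcripts, the Gria2 share was 33.2%, 36.5% and 34.9% in knockdown libraries. It was 36.7%, 36.1% and 36.0% in control libraries (difference -1.42 points, two-sided exact permutation p = 0.3). On that scale, which leaves out most Gria3 fragments, knockdown 1 was the lowest library and not the highest. The log2 ratio of the 5 auxiliary genes to the 4 pore genes was 0.94, 0.88 and 1.11 in knockdown libraries, against 0.84, 1.14 and 1.17 in control libraries (two-sided exact permutation p = 0.7).

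Other genes of the receptor complex and its assembly were read from a list of 25, of which 23 were tested. Of these limma called 0, as over all genes (0%), and 1 had an unadjusted p under 0.05, or 4.35% against 3.57% of all genes. In this list 11 were positive (47.8%, against 55.7% of all genes) and 12 negative, with a median log2 fold change of -0.004 against 0.02 over all genes. Abhd6, a hydrolase that binds pore subunits and limits their surface delivery, had the smallest p, at 10.02, 12.1 and 10.5 FPKM in knockdown libraries, against 11.9, 20.5 and 17.9 FPKM in control libraries. Knockdown 2 lay just above control 1 (log2 fold change -0.55, 95% interval -1.003 to -0.10, limma adjusted p = 0.948). Olfm3, of the olfactomedin (noelin) family of secreted proteins, was at 6.76, 7.16 and 6.90 FPKM in knockdown libraries, against 6.30, 5.73 and 5.89 FPKM in control libraries, without overlap (log2 fold change 0.19, limma adjusted p = 0.948). It was the 1 gene of the 23 whose groups did not overlap, or 4.35% against 7.92% of all genes. Neto1 and Nrn1 (neuritin) had log2 fold changes of 0.15 and 0.39, and their groups overlapped. Neto1 is a kainate receptor auxiliary gene, so the counts of this list are not of AMPA receptor genes alone.

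Trafficking and anchoring genes were read from a list of 34, all tested, with 22 positive (64.7%, against 55.7% of all genes) and 12 negative, and a median log2 fold change of 0.04 against 0.02 over all genes. Limma called 0, as over all genes (0%), and 1 had an unadjusted p under 0.05, or 2.94% against 3.57% of all genes. The gene with that p was Dlg1 (SAP97), a scaffold that binds GluA1, at 10.7, 7.52 and 11.6 FPKM in knockdown libraries, against 16.1, 15.4 and 12.5 FPKM in control libraries. Its groups did not overlap (log2 fold change -0.53, 95% interval -0.93 to -0.13, limma adjusted p = 0.948), as in 1 of the 34 genes, or 2.94% against 7.92% of all genes. Dlg4 (PSD-95), which anchors receptors through TARPs, was at 105, 117 and 71.3 FPKM in knockdown libraries, against 116, 131 and 113 FPKM in control libraries. Knockdown 1 and 3 lay below each control, with knockdown 3 the lowest, and knockdown 2 did not (log2 fold change -0.32, 95% interval -0.76 to 0.11). Dnm3, a dynamin of the postsynaptic endocytic zone, had a log2 fold change of 0.32. Nptx1, a secreted pentraxin that clusters AMPA receptors, was at 76.6, 69.5 and 48.8 FPKM in knockdown libraries, against 48.4, 28.4 and 63.9 FPKM in control libraries (log2 fold change 0.51, 95% interval -0.19 to 1.21).

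Of the editing enzymes, Adarb1 (ADAR2), which edits the Q/R site of Gria2, was at 8.52, 8.55 and 8.40 FPKM in knockdown libraries, against 7.18, 7.77 and 7.69 FPKM in control libraries. Each knockdown library was above each control, as in 4.45% of all genes, and the log2 fold change of 0.15 (95% interval -0.04 to 0.35) did not pass (limma adjusted p = 0.948). Adar was at 13.2 to 19.3 FPKM in knockdown and 12.0 to 19.6 FPKM in control libraries. Adarb2 was too low to be tested, at 0.502 to 0.602 FPKM in knockdown and 0.426 to 0.686 FPKM in control libraries. For comparison, 6 of 7 NMDA receptor subunit genes were listed and tested, with limma calling 0 and 0 at an unadjusted p under 0.05, log2 fold changes from -0.09 (Grin2d) to 0.33 (Grin2a) and a median of 0.02.

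The mean profile of Gria1 to Gria4, as centred log2(FPKM + 1), was -0.26, 0.16 and -0.05 in knockdown 1, 2 and 3, and 0.20, -0.05 and 0.01 in control 1, 2 and 3. The low value of knockdown 1 comes with its low Gria3. Of all other tested genes, Slc39a2, Senp6 and Ddx4 had the smallest root-mean-square difference from it over the 6 libraries, at 0.035, 0.043 and 0.043. With 6 libraries and 11961 genes, close profiles of this kind are a description only.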

How the data were processed

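Orbitofrontal cortex RNA of 3 knockdown and 3 control libraries was compared, grouped by sample title. The authors deposited FPKM values per gene and per transcript, as the file headers name them. The submitters' processing notes list HISAT2, StringTie, cutadapt and FastQC but no versions, and the build is not given in the sources used here. One emptied line per table was not analysed here. Read depth is unknown, so no counting intervals are given.

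Log2(FPKM + 1) was fitted over all genes and all transcripts with a mean of at least 1 FPKM, using limma 3.58.1 in R 4.3.3 with an intensity trend and Benjamini-Hochberg adjustment at 0.05. Relative use of a gene's transcripts was tested by diffSplice with Simes p-values. Single values were compared by exact permutation. The functions were tested on simulated data. Transcripts were assigned to flip or flop by a short residue motif read in frame from GENCODE M21 sequences, which shared version and span with 19 of the 20 listed transcripts (not Cnih2-201). The identifiers of 11678 of 13348 listed genes matched M21 with version, all with the same coordinates.

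Members and lists were chosen with earlier results of these data known. The naming rule took all members and their transcripts, the 4 genes per list with the smallest p, the editing enzymes, and 3 genes by likeness. The alternatives each changed the scaling, the low-value filter, the pseudocount, the intensity trend or the library weighting, added the replicate number as a block, or left out 1 library.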

Additional observations from a re-analysis of the deposited data

How the results depend on the processing

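Filters, scaling and variance: limma called 1 gene with libraries brought to the same FPKM sum and 3 with array weights, against 0. It called 8 transcripts with a mean of at least 5 FPKM and 44 with no intensity trend, against 19. Usage genes numbered 79 with no filter and 12 with a mean of at least 5 FPKM, against 41. The replicate block called 0 genes, 0 transcripts and 33 usage genes, and no member. Same-numbered libraries deviated with correlations of 0.184, -0.127 and -0.0708, so the numbers are not treated as pairs. Under the block the Gria4 flip share differed by 39.9 points (exact sign-flip permutation p = 0.25, the smallest possible). No member gene, transcript or usage test was called under any alternative.

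Signs of small fold changes turned. Bringing libraries to the same sum gave Gria1 0.024, Gria2 0.012, Cnih3 0.014, Cnih3-201 0.0083, Gria2-201 0.0057 and Gria4-201 0.039. Median-of-ratios factors gave Cacng2 -0.0012 and Gria4 -0.0090. The median over all genes tested moved as well, from 0.019 to 0.071 with the same sum and to -0.0034 with these factors. Gria4-201 was also positive with a pseudocount of 0.1 (0.017) and array weights (0.071). Summing listed transcripts gave a difference of -1.42 points in the Gria2 share of the pore subunit sum. The cause was not tested.

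Leaving out 1 library gave 0 to 3 genes, 11 to 32 transcripts and 63 to 97 usage genes. Flip share differences ranged from -12.6 to 5.04 points (Gria1), -1.76 to -0.79 (Gria2), -2.04 to 9.56 (Gria3) and 23.3 to 48.2 (Gria4). The Gria2 share of the pore subunit sum differed by -0.93 to 1.21 points, and the pore sum by -10.3 to 0.15 FPKM. Log2 fold changes ranged from -0.087 to 0.13 (Cacng2 and Cacng2-201), -0.43 to 0.27 (Cnih3 and Cnih3-201), -0.14 to 0.026 (Gria1), -0.12 to 0.046 (Gria2), -0.67 to 0.15 (Gria3), -0.12 to 0.10 (Gria4), -0.63 to 0.0062 (Cacng8-203), -0.75 to 0.47 (Gria1-201), -0.25 to 0.28 (Gria1-202), -1.32 to 1.15 (Gria1-204), -0.13 to 0.020 (Gria2-201) and -0.19 to 0.31 (Gria4-201).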
